A study of Mus musculus with 6 samples.

Results

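Among the genes expressed at a high level in mock-irradiated pre-B cells, 54 fell to 0.5 of their mock signal or less in every line within 2 hours of 1 Gy of ionizing radiation (IR). They are described here as the bright transcripts that fell strongly. The genes were selected on the measured signals themselves. A probe set, the group of short probes that gives 1 signal on the array, had to reach 1000 on all 3 mock arrays. Its 1 Gy to 0 Gy ratio had to be 0.5 or less in each of the 3 pairs of arrays. Among the probe sets of a gene that met both limits, the 1 with the highest mean mock signal stood for the gene. Of 5635 probe sets with 1 gene name at this brightness, 90 met both limits (1.6% of them), and after 16 genes were left out by name 71 probe sets of 54 genes remained, of 3937 genes at this brightness and 18193 named genes on the array. Since these values chose the members, their fall is a description with no test. In the other direction, 88 of the 5635 probe sets (1.56%) rose 2-fold or more in each pair.

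The study used the Affymetrix Mouse 430 2.0 array on 6 samples of WT pre-B cell lines, 3 collected after 1 Gy and 3 after mock irradiation (0 Gy). The irradiated cells received 1 Gy at 0.72 Gy per minute from a cesium source and were pelleted 2 hours later, and the mock cells received 0 Gy. Both groups were v-abl transformed, carried an Eμ-Bcl2 transgene, which drives the antiapoptotic Bcl2 protein in lymphoid cells, and had been held for 48 hours in 3 μM STI-571 (imatinib), the inhibitor of the Abl kinase that arrests them in G1. The 3 lines were derived independently, and each gave 1 array per dose. Arrays with the same replicate number were taken as 1 line, so that every ratio compares an irradiated and a mock culture of that line. A transformed, arrested line that is protected from apoptosis stands in for a pre-B cell here, and in such bulk RNA fewer cells that hold a transcript and less of it per cell cannot be told apart.

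Ionizing radiation breaks both strands of DNA, and the kinase ATM passes the signal on to transcription factors such as p53 and NF-κB. Pre-B cells stop dividing before they rearrange their immunoglobulin light chain genes, and D-type cyclins, surface coreceptors and stage-specific enzymes such as the BP-1 antigen mark the stage. The level of an mRNA depends on both its synthesis and its decay, which an array does not separate.

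Promoters were read for the members as a description, and the fall that the members share was set by the selection. RefSeq gave windows of 300 bases (250 before and 50 after a start) for 50 of the 54 genes, 67 windows in all, on the mouse build GRCm38.p6. None was listed for Bst1, Gnb4, Pde3b and S1pr1. Each of 10 short motifs was searched on both strands. The windows of 6 of the genes with large falls are printed 5′ to 3′ on the strand of the gene, with every motif match in capitals, to show how unlike each other they are.
Vsir, chr10:60346601-60346900, plus strand: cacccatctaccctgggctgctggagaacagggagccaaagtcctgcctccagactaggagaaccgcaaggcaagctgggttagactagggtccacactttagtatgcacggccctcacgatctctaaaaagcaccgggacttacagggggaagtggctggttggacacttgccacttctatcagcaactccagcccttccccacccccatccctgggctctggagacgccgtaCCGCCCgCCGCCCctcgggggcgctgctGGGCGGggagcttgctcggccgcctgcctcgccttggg
Snn, chr16:11066048-11066347, plus strand: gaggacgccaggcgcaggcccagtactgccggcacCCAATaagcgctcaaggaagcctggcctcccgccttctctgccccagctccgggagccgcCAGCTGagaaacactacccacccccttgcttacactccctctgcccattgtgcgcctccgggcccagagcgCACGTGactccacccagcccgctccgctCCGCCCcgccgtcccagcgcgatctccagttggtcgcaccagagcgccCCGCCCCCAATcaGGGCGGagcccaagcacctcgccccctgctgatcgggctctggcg
Cdc25b, chr2:131186698-131186997, plus strand: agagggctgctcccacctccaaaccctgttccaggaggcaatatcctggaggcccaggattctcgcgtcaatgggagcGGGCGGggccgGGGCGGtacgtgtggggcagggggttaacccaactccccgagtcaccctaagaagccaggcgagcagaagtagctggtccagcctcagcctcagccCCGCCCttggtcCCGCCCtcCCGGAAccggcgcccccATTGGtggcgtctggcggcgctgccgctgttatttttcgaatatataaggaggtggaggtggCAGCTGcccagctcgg
Mxd4, chr5:34187661-34187960, minus strand: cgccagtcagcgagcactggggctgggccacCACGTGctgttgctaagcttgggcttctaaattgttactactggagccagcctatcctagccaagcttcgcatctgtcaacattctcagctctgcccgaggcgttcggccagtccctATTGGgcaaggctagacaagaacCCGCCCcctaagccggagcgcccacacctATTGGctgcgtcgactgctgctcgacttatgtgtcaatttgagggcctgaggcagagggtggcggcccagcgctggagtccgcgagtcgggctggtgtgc
Enpep, chr3:129332700-129332999, minus strand: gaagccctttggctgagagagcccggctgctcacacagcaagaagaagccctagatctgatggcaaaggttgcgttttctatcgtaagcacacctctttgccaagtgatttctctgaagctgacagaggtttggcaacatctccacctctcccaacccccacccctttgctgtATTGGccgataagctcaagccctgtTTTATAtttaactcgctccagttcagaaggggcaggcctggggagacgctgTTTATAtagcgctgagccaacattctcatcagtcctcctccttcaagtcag
S1pr4, chr10:81500088-81500387, minus strand: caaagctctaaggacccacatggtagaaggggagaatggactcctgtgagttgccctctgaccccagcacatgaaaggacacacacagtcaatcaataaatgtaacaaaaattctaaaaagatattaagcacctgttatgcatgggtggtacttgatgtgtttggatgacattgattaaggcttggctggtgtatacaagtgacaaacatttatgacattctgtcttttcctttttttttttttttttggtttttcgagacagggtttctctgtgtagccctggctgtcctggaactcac

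The Vsir window held 3 GC boxes (GGGCGG, the core of the Sp1 site), which begin at -16, -9 and +13 from the start, and no other motif of the 10. The windows of Snn and Cdc25b held several GC boxes with CCAAT boxes (CCAAT). In Snn a GC box just before the start abuts a CCAAT box that spans the start. Snn and Mxd4 each held an E box (CACGTG, the core bound by MYC, MAX and MXD proteins), Cdc25b an ETS core (CCGGAA), and Enpep a pair of TATA boxes (TATAAA) with 1 CCAAT box. The S1pr4 window held none of the 10 motifs, and neither did those of Cd22, Tfdp2 and Tnfrsf13b.

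Across the 67 member windows the GC box was the most frequent motif, at 70.1% of windows, against 66.0% of the 4203 windows of all bright genes and 35.7% of all 32851 windows. The CCAAT box was in 37.3% of member windows, 36.6% of those of bright genes and 37.4% of all windows. The ETS core was in 9 member windows (13.4%), against 32.9% of the windows of bright genes and 14.9% of all windows. The TATA box was in 2.99%, 6.61% and 13.6% of the same 3 sets, the E box in 14.9%, 11.8% and 7.15%, and the E protein core (CAGCTG) in 14.9%, 13.0% and 16.3%. The κB motif, searched by its consensus, was in 10.4% of member windows (those of Cdkn2d, Cnp, Eef2k, Hhex, Nxpe3 and Scarb2), against 7.30% and 5.80%. The cyclic AMP response element (TGACGTCA) was in none of the member windows, against 3.52% and 1.79%, and the AP-1 site (TGANTCA) and the forkhead core (GTAAACA) were each in at most 2 of them, against 4.26% and 2.55% of the windows of bright genes and 7.81% and 3.65% of all windows. Member windows had a median GC content of 63.7%, against 61.7% for bright genes and 52.7% for all windows. The CpG content reached 0.6 of the expected value in 67.2%, 78.8% and 35.8% of them. GC boxes and GC content were thus close to those of bright genes, and ETS cores were fewer. These are counts of letters in a fixed window, some genes have several windows, and no test was made.

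Signals are scaled so that each array has a mean of 500 without its lowest and highest 2%, and 41.7% to 43.8% of the 45037 probe sets reached 100 on an array. The median signal was 51.7 to 54.3 on the 1 Gy arrays and 51.6 to 59.4 on the mock arrays, highest in mock cells of line 1. As a sign of RNA quality, the beta-actin control probe sets gave a 3′ over 5′ signal of 1.26 to 1.38 on the 1 Gy arrays and 1.4 to 1.5 on the mock arrays, lower in each line after 1 Gy. The same measure for Gapdh was 0.80, 0.78 and 0.79 after 1 Gy in lines 1, 2 and 3, against 0.79, 0.90 and 0.77 in mock cells, and the part of either in the falls was not tested. All 7 pre-B cell markers that could be read (Cd79a, Cd79b, Vpreb1, Igll1, Pax5, Ebf1 and Blnk) were at 100 or above on all 6 arrays, with a summed signal of 73318 to 102563 after 1 Gy and 79896 to 91676 in mock cells. None of 6 T cell, 4 erythroid and 5 stromal markers reached 100 on all arrays, and of 7 myeloid markers Itgam alone did. Of 5 plasma cell markers Sdc1, Prdm1, Xbp1 and Irf4 were at 100 or above on every array and Jchain was below 100 on every array. Their summed signal was 23226 to 25774 after 1 Gy and 15636 to 17177 in mock cells, and its part in the falls was not tested.

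The members kept a median of 36.2% of their mock signal (mean log2 ratio over the 3 lines, median -1.47). The values ran from 20.9% for Vsir to 47.1% for Pfn2, while the 5635 bright probe sets had a median log2 ratio of -0.02 and 95% of them lay between -1.09 and 0.97. Member signals were 239 to 6376 on the 1 Gy arrays and 1061 to 17303 on the mock arrays. In 40 of the 54 genes every 1 Gy signal was still over 500, and in 19 genes every 1 Gy signal was 1000 or more. The mean ratio was under 25% for 5 genes, and Bst1 was the 1 gene at 25% or less in each line.

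**Figure D1:**
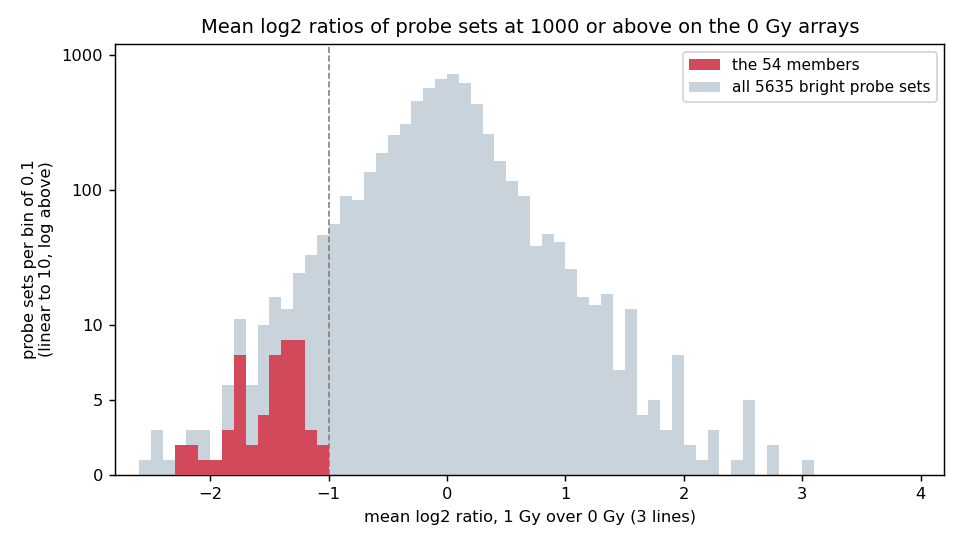
Mean log2 ratio of the 1 Gy to the 0 Gy signal over the 3 lines (x axis) for all 5635 probe sets at 1000 or above on the 3 mock arrays (grey) and for the probe sets of the 54 members (red), as probe sets per bin of 0.1 on an axis that is linear to 10 and logarithmic above. The members lie between -2.26 and -1.09, left of the dashed line at a ratio of 0.5, and the grey probe sets have their median at -0.02. Grey bars left of the line hold further probe sets of the same genes, the genes left out by name, and probe sets that missed the limit in at least 1 line.

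Surface proteins were the largest group of members, with 10 genes and a median log2 ratio of -1.68. Roles were given to the members only, so that the share of surface proteins among all bright genes is not known. Genes left out by name are in none of the groups. Vsir encodes VISTA, an inhibitory receptor of the immunoglobulin family. Its signals were 249, 342 and 371 on the 1 Gy arrays of lines 1, 2 and 3, against 1257, 2004 and 1370.3 on the mock arrays, a mean log2 ratio of -2.26 ± 0.34 (SD, n = 3 lines). Bst1 (CD157), an ectoenzyme of the ADP-ribosyl cyclase family, had 1019.7, 1067 and 1059 after 1 Gy and 4191, 4817 and 5129.6 in mock cells (log2 ratio -2.16 ± 0.12). Its 3 irradiated signals were nearly equal and lay far below the mock signals. Enpep, the aminopeptidase known as the BP-1 antigen of early B-lineage cells, had 785, 747 and 1652 against 3037, 3782 and 5775 (log2 ratio -2.03 ± 0.28), with line 3 highest at both doses.

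Both sphingosine 1-phosphate receptors among the members, S1pr4 and S1pr1, fell. S1pr1 directs lymphocytes out of tissues and S1pr4 is its relative on lymphoid cells. S1pr4 had 619.7, 762 and 960 after 1 Gy, against 1913, 3151 and 3164 in mock cells (log2 ratio -1.80 ± 0.22), with line 1 lowest at both doses. S1pr1 had 518, 944 and 547 against 1367, 2186 and 1477 (log2 ratio -1.35 ± 0.12), with line 2 highest at both doses. In neither gene did the groups overlap. The selection used this contrast, and 19.8% of all bright probe sets had no overlap in this direction.

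Ceacam1, an adhesion molecule with an inhibitory tail, had 262, 564 and 431 after 1 Gy and 1243, 1355 and 1526 in mock cells (log2 ratio -1.78 ± 0.49). It was 1 of 2 members whose lowest ratio was that of line 1, the other being Rpa1. Cd22, the inhibitory coreceptor of B cells that binds sialic acid, had 1806, 1001 and 942 against 4237, 3096 and 2540.1 (log2 ratio -1.43 ± 0.20), highest in line 1 at both doses. Cd47, the ligand by which cells restrain phagocytes, had 1417, 1416 and 2562 against 3926, 4481 and 6218 (log2 ratio -1.47 ± 0.19), highest in line 3 at both doses. The groups did not overlap in any of these 3 genes, which were selected on this contrast (19.8% of all bright probe sets had no overlap).

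Cpm, a carboxypeptidase anchored in the plasma membrane, kept 33.5% of its mock signal. Its 1 Gy signal in line 3 (3114) exceeded the mock signal of line 1 (2475), so that the groups overlapped although each line fell. Tnfrsf13b, the receptor TACI for the B cell survival factors BAFF and APRIL, lay closest to the limit. It had 2933, 2173 and 2315 after 1 Gy and 6367, 4905 and 4638 in mock cells (log2 ratio -1.10 ± 0.09), with a ratio of 0.499 in line 3.

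**Figure D2:**
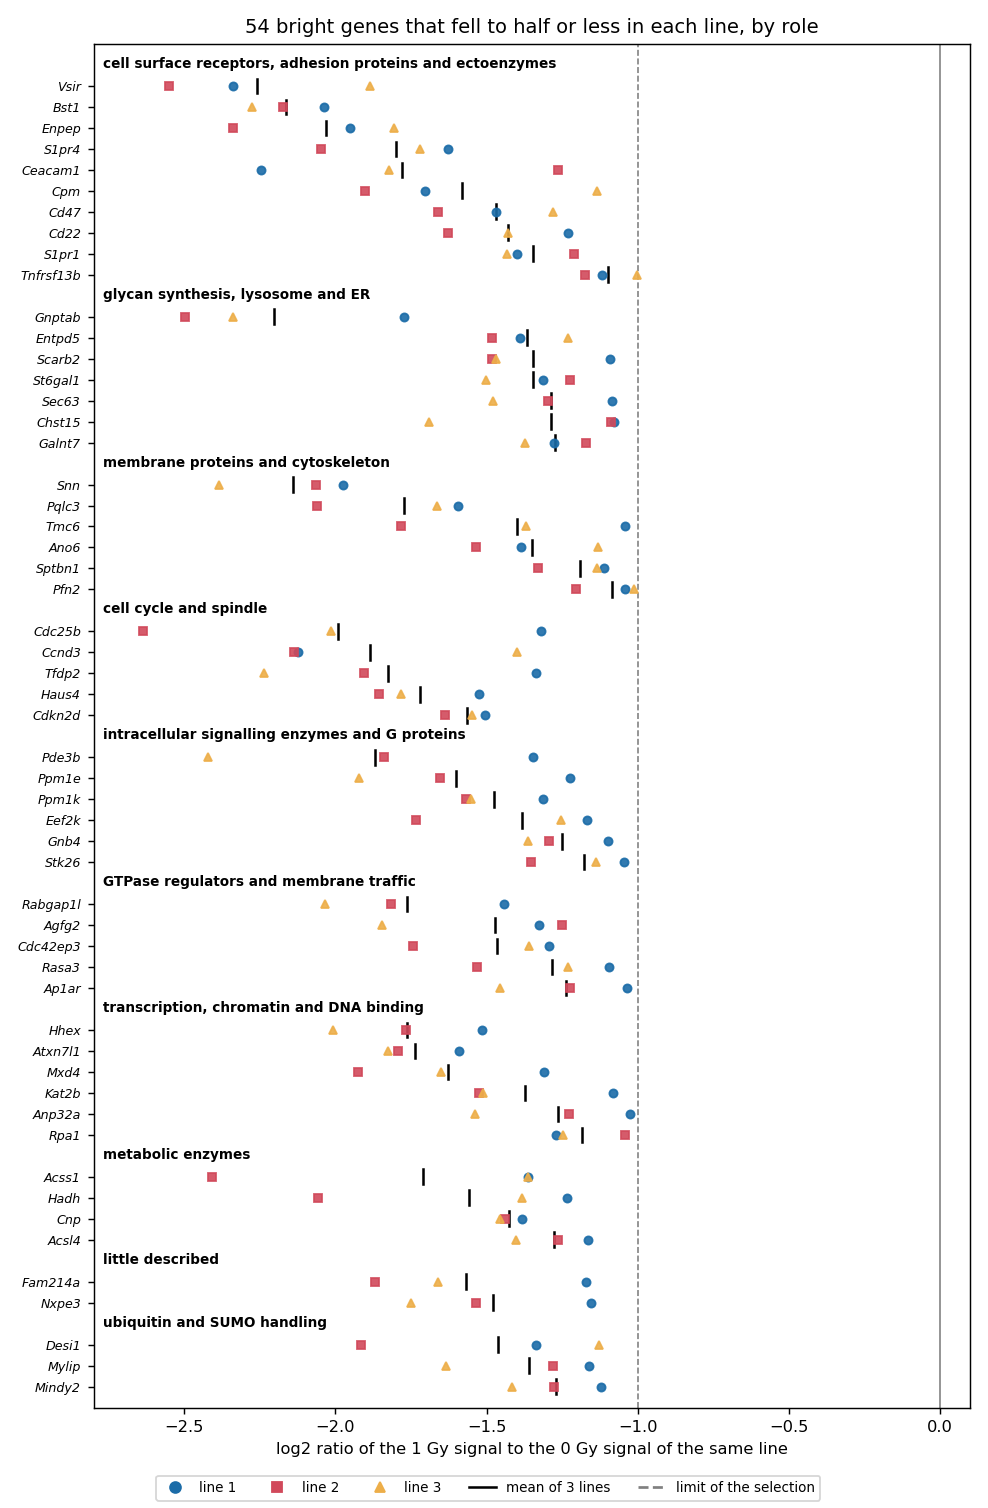
Log2 ratio of the 1 Gy signal to the 0 Gy signal of the same line (x axis) for each of the 54 genes, grouped by role (rows), with 1 point per line and a black bar at the mean of 3 lines. All points lie left of the dashed line at a ratio of 0.5, which chose the genes. Points of line 1 are the rightmost in 38 of the 54 rows, and the share among all bright probe sets was not counted.

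The cell cycle genes had the lowest median of any role, a log2 ratio of -1.83 over 5 genes. Ccnd3, the D cyclin that pre-B cells need to proliferate, had 843, 512 and 1498 after 1 Gy, against 3678, 2253 and 3950.2 in mock cells (log2 ratio -1.89 ± 0.42), with line 2 lowest at both doses. Cdc25b, a phosphatase that activates cyclin-dependent kinases, had 789, 399 and 1000.1 against 1970.2, 2479.7 and 4042 (log2 ratio -1.99 ± 0.66). Its ratio was 0.161 in line 2 and 0.400 in line 1, the widest spread between lines of any member.

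Tfdp2, a dimer partner of the E2F factors, had 547, 529 and 505 after 1 Gy and 1381, 1984 and 2380.3 in mock cells (log2 ratio -1.83 ± 0.45). The irradiated signals of its 3 lines were close together whereas the mock signals spread. Cdkn2d, which encodes the inhibitor p19Ink4d of the kinases that D cyclins activate, had 537, 505 and 745 against 1523, 1571 and 2181 (log2 ratio -1.56 ± 0.07), with nearly the same ratio in each line. Haus4, a subunit of the augmin complex of the spindle, kept 30.3% of its mock signal. Among the members were thus a D cyclin and an inhibitor of its kinases.

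Values of 3 relatives of these genes, chosen after they had been seen, are set beside them. Ccnd2, another D cyclin, had 15288, 9565 and 19557 after 1 Gy and 5655, 244 and 1079 in mock cells, above mock in each line (log2 fold change 3.64, adjusted p = 0.126 from limma, and 0.0415 with the line as a block). Cdkn1b, a further inhibitor of cyclin-dependent kinases, had 1158, 1248 and 2203 against 2435, 3024 and 4312 (log2 fold change -1.11, adjusted p = 0.122, and 0.0151 with the block). The kinase Cdk4 had 3476, 3338 and 2936 against 3895, 3258 and 2787, and its groups overlapped.

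**Figure D3:**
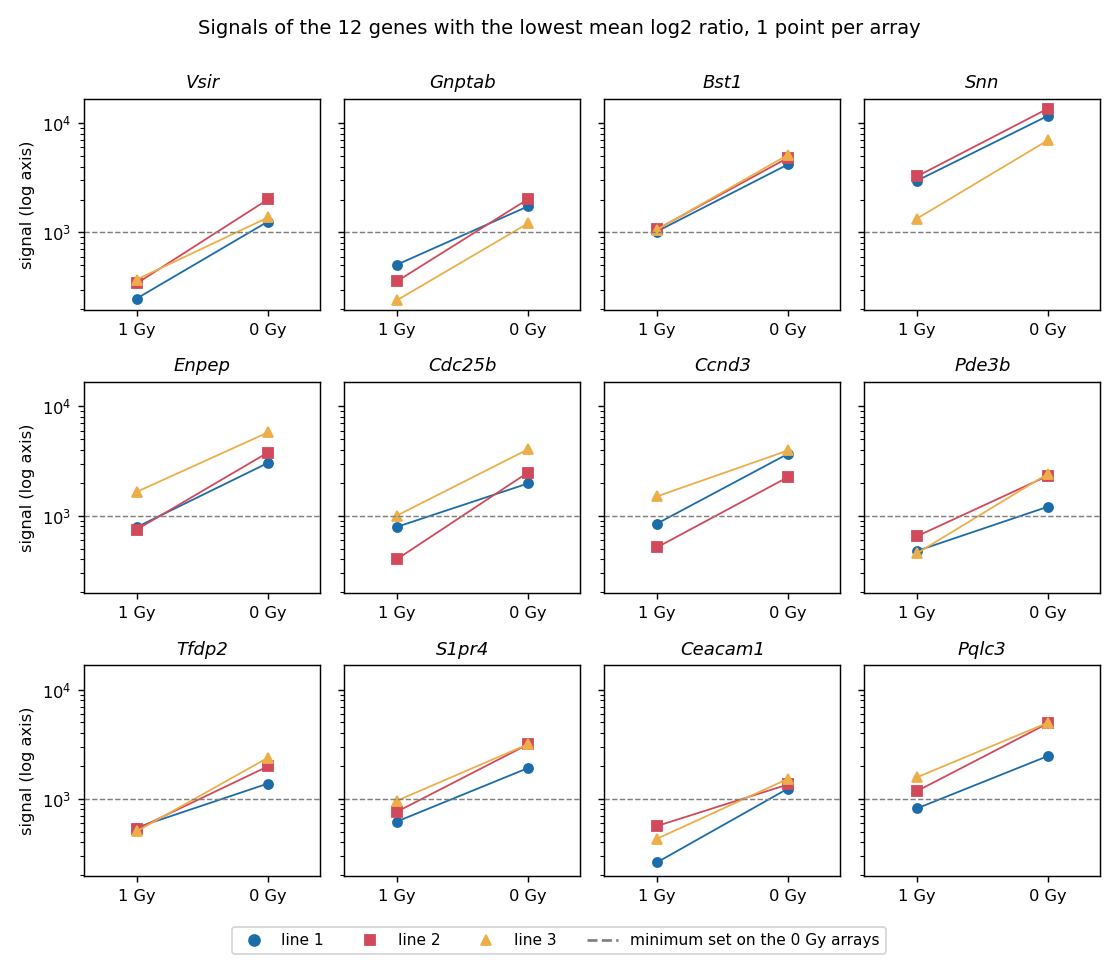
Signal on each array (y axis, log scale, 1 point per array) after 1 Gy (left) and 0 Gy (right) for the 12 members with the lowest mean log2 ratio, with a line joining the 2 arrays of 1 cell line. In all 12 genes every 1 Gy point lies below every 0 Gy point, which also holds for 19.8% of all bright probe sets. The joined points fall in each of the 3 lines, as the selection required. The dashed line is the minimum of 1000 that the selection set on the 0 Gy arrays.

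Members that build or sort glycoproteins numbered 7, with a median log2 ratio of -1.35. Gnptab, the enzyme subunits that start the mannose 6-phosphate tag of lysosomal hydrolases, had 506, 357 and 239 after 1 Gy, against 1733, 2015 and 1209.9 in mock cells (log2 ratio -2.20 ± 0.38), with line 3 lowest at both doses. St6gal1, the transferase that adds the sialic acid linkage to which Cd22 binds, had 3375, 4576 and 2671 against 8386, 10703 and 7574 (log2 ratio -1.35 ± 0.14). The enzyme of the Cd22 ligand and Cd22 itself were therefore both members.

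Chst15, a sulfotransferase of chondroitin sulfate, had 1055, 1058 and 394 after 1 Gy and 2229, 2251 and 1270.5 in mock cells (log2 ratio -1.29 ± 0.35), with line 3 lowest at both doses. Galnt7, a transferase of O-glycan synthesis, had 554, 724 and 441 against 1343, 1629.5 and 1141 (log2 ratio -1.27 ± 0.10). Scarb2, the lysosomal membrane protein that carries glucocerebrosidase to the lysosome, had 1209, 1333 and 1566 against 2579.5, 3726 and 4337 (log2 ratio -1.35 ± 0.22). In these 3 genes the highest irradiated signal was below the lowest mock signal, as in 19.8% of all bright probe sets. Entpd5, a nucleotide diphosphatase of the endoplasmic reticulum, kept 38.7% of its mock signal, and Sec63, a part of the protein translocation machinery there, 40.9%.

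Signalling enzymes and G proteins numbered 6 (median log2 ratio -1.43). Pde3b, which degrades cyclic AMP, had 475, 647 and 452 after 1 Gy and 1208, 2319 and 2418 in mock cells (log2 ratio -1.87 ± 0.54), with ratios of 0.187 in line 3 and 0.393 in line 1. Eef2k, the kinase that inhibits translation elongation factor 2, had 3328, 2869.5 and 3782 against 7474, 9544 and 9012 (log2 ratio -1.38 ± 0.31). Gnb4, a beta subunit of heterotrimeric G proteins, had 836, 952 and 514 against 1791, 2332 and 1321 (log2 ratio -1.25 ± 0.14). Pde3b thus fell unevenly, with its mock signals spread between lines, and Gnb4 evenly.

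Ppm1e and Ppm1k are protein phosphatases of the PP2C family, Ppm1k being the mitochondrial one. Ppm1e had 903, 753 and 664 after 1 Gy, against 2109, 2371 and 2519 in mock cells (log2 ratio -1.60 ± 0.35). Ppm1k had 483, 501 and 506 against 1199.5, 1484 and 1481 (log2 ratio -1.48 ± 0.14), with nearly equal irradiated signals. Stk26, a kinase of the germinal center kinase family, kept 44.2%, and its irradiated signal in line 3 (1999.9) exceeded the mock signal of line 1 (1849).

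Among 5 regulators of GTPases and membrane traffic (median log2 ratio -1.47), Rabgap1l, a GTPase activating protein for Rab proteins, had 1042, 895 and 808 after 1 Gy and 2836, 3156 and 3307 in mock cells (log2 ratio -1.76 ± 0.30). Cdc42ep3, an effector of the GTPase Cdc42, had 2260.1, 1839.8 and 1958 against 5535, 6155 and 5028 (log2 ratio -1.47 ± 0.24). Rasa3, which turns off Ras and Rap, had 578, 548 and 768 against 1234, 1583 and 1803 (log2 ratio -1.29 ± 0.22). In all 3 the highest irradiated signal was below the lowest mock signal, as in 19.8% of all bright probe sets. The selection used this contrast. Agfg2, of the ARF GTPase activating protein family, kept 36.0% and Ap1ar, a regulator that binds the AP-1 clathrin adaptor, 42.4%.

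The 6 members that act on transcription, chromatin or DNA had a median log2 ratio of -1.50. Hhex, a homeobox factor of blood and B-lineage development, had 480.3, 389.5 and 479 after 1 Gy, against 1373, 1325 and 1924 in mock cells (log2 ratio -1.76 ± 0.25). Mxd4, a MAX partner that represses at the E boxes MYC uses, had 1807, 1496 and 1466 against 4477, 5678 and 4601 (log2 ratio -1.63 ± 0.31), and its own promoter window, printed above, holds an E box. Both genes fell least in line 1.

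Kat2b, the histone acetyltransferase PCAF, had 801, 855 and 645 after 1 Gy and 1697, 2460.2 and 1840.2 in mock cells (log2 ratio -1.37 ± 0.25). Atxn7l1, a relative of the SAGA subunit ataxin 7, had 372, 381 and 379.7 against 1119.7, 1320.1 and 1347 (log2 ratio -1.74 ± 0.13). Its 3 irradiated signals were nearly equal. Anp32a, an acidic nuclear phosphoprotein, had 960.2, 730.4 and 677 against 1956, 1709.8 and 1966 (log2 ratio -1.26 ± 0.26). Rpa1, the large subunit of the single-stranded DNA binding complex RPA, had 2007, 1754 and 1734 against 4839, 3610.5 and 4115 (log2 ratio -1.19 ± 0.13).

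Metabolic enzymes numbered 4, with a median log2 ratio of -1.49. Acss1, which makes acetyl-CoA from acetate in mitochondria, had 1209, 774 and 1849 after 1 Gy and 3110.2, 4111 and 4759.5 in mock cells (log2 ratio -1.71 ± 0.60). Its ratio was 0.188 in line 2 and 0.389 in lines 1 and 3. Hadh, a dehydrogenase of fatty acid oxidation, had 2046, 1059.6 and 1158 against 4808, 4415 and 3021 (log2 ratio -1.56 ± 0.44), and again line 2 had the lowest ratio. Acsl4, an acyl-CoA synthetase that prefers arachidonic acid, had 597, 636 and 489 against 1339, 1528 and 1294 (log2 ratio -1.28 ± 0.12).

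Cnp, a cyclic nucleotide phosphodiesterase best known from myelin, had 5332, 6376 and 4402 after 1 Gy and 13915, 17303 and 12068 in mock cells (log2 ratio -1.43 ± 0.04). Its ratios in the 3 lines were 0.383, 0.369 and 0.365, the narrowest spread of any member, although line 2 was highest at both doses. The next narrowest spreads were those of Cdkn2d and Tnfrsf13b.

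Membrane and cytoskeletal proteins numbered 6 (median log2 ratio -1.38). Snn encodes stannin, a small membrane protein. It had 2968, 3253 and 1336 after 1 Gy and 11679.6, 13591 and 6976 in mock cells (log2 ratio -2.14 ± 0.22), with line 3 lowest at both doses. Sptbn1, a beta spectrin of the membrane skeleton, had 1692, 3029 and 4117 against 3656, 7608 and 9046 (log2 ratio -1.19 ± 0.12). Its groups overlapped because line 1 was low at both doses. Pfn2, an actin-binding profilin, had 1007, 545 and 1409 against 2071, 1257 and 2845 (log2 ratio -1.09 ± 0.10), also with overlap, since its irradiated signal in line 3 was above the mock signal of line 2. Pqlc3, of the PQ-loop family, kept 29.2% of its mock signal, Tmc6, of the transmembrane channel-like family, 37.9%, and Ano6, a lipid scramblase, 39.2%.

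Mylip, a ubiquitin ligase of the LDL receptor, had 3225, 4939.6 and 3048 after 1 Gy, against 7209, 12010.3 and 9465 in mock cells (log2 ratio -1.36 ± 0.25), with line 2 highest at both doses. Desi1, a SUMO isopeptidase, had 1984, 2027 and 2939.6 against 5013, 7655 and 6426 (log2 ratio -1.46 ± 0.41). Mindy2, a deubiquitinase, had 2540.5, 2279.7 and 2233 against 5529.6, 5528 and 5961 (log2 ratio -1.27 ± 0.15). These 3 genes formed the ubiquitin and SUMO group (median log2 ratio -1.36). The remaining members Fam214a and Nxpe3 kept 33.7% and 35.9%.

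The genes on either side of the limit were much alike. Just inside it the highest ratio in a pair was 0.499 for Tnfrsf13b, 0.495 for Pfn2 and 0.491 for Anp32a. Just outside it was 0.501 for Cisd1, an iron-sulfur protein of the mitochondrial membrane, 0.503 for Txndc11 and 0.506 for Serinc5. Cisd1 had 1279.5, 1697 and 1240.5 after 1 Gy, against 3282, 3387 and 2523 in mock cells, a fall in each line that differs little from that of the last members. Brightness cut off other genes that fell as far. Fam78a, Lgr5 and Rell1 met the ratio limit but had a lowest mock signal of 978, 920.1 and 916. In all, 93 probe sets with a lowest mock signal from 500 to under 1000 met it. That count includes other probe sets of members, and the names left out were not removed from it.

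The ratio was highest in line 1 in 38 of the 54 genes, in line 2 in 6 and in line 3 in 10. The shares of all bright probe sets with the highest ratio in each line were not counted. The median ratio of the members was 0.402 in line 1, 0.322 in line 2 and 0.356 in line 3. The lowest of the 3 ratios was that of line 1 in 2 genes, line 2 in 30 and line 3 in 22, while among all bright probe sets it was that of line 1 in 26.8%, line 2 in 43.2% and line 3 in 30.0%. Mock signals were in the same order, since line 1 had the highest mock signal in 5 members, line 2 in 25 and line 3 in 24, against 30.4%, 36.5% and 33.1% of bright probe sets. Ratios and mock signals share the mock arrays, so that these counts are not separate evidence, and whether the arrays of line 1 or its cells moved them was not tested. With all arrays scaled to a common median, the ratios of bright probe sets in line 1 shifted by 0.13 on the log2 scale (0.02 in line 3 and -0.01 in line 2), and 40 of the 54 genes still met the limit. The 14 that no longer met it were Anp32a, Ap1ar, Chst15, Gnb4, Kat2b, Mindy2, Pfn2, Rasa3, Scarb2, Sec63, Sptbn1, Stk26, Tmc6 and Tnfrsf13b, yet all 54 stayed below mock in each line, with a highest ratio of 0.536.

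In 50 of the 54 genes every irradiated signal was below every mock signal, and Cpm, Sptbn1, Stk26 and Pfn2 were the exceptions. The selection used this contrast, and 19.8% of all bright probe sets had no overlap in this direction. The SD of the log2 ratio over the 3 lines had a median of 0.23 among members and ran from 0.04 for Cnp to 0.66 for Cdc25b, followed by Acss1 and Pde3b.

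Differences in level between lines were tested with an F test of the line terms in limma, in a fit with dose and line. It called 5 of the 54 members, Snn (adjusted p = 0.043 from limma), Cpm (0.0334), Sptbn1 (0.0271), Stk26 (0.0363) and Pfn2 (0.0283). The test called 2.5% of bright probe sets and 8.6% of all probe sets tested. Line 3 was highest at both doses in Cpm, Sptbn1, Stk26 and Pfn2 and lowest in Snn. The mock signals of a member differed by a median factor of 1.53 between the highest and lowest line, against 1.26 for bright probe sets, with a highest factor of 2.76. The count rests on few arrays, since it was 1 without line 1, 5 without line 2 and 0 without line 3, and at an unadjusted p under 0.05 the test passed 24 of the 54, against 17% of bright probe sets and 29.4% of all probe sets tested. The brightness limit bounds the mock signals from below, and it holds for the bright probe sets as well. The mock signals are also the denominators of the ratios, and the residual of the test is the spread of those ratios. The member counts and shares are thus not separate from the selection.

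Many genes have several probe sets, and these give another reading of the same RNA from other probes. The 54 genes have 85 other probe sets. Of the 71 that were bright enough to test (at 100 or above on at least 1 array), in 37 genes, 17 met the same limits, a further 50 were lower after 1 Gy in 3 of 3 lines, 2 were mixed and 2 were higher in 3 of 3. Their median log2 ratio was -1.30, against -0.06 for all probe sets tested. The 71 include the 17 that met the limits and come from the arrays of the selection, so that this median is not separate evidence. The share of all tested probe sets that were lower in 3 of 3 lines was not counted. The 28 that reached 1000 on the 3 mock arrays, 17 of which met the limits themselves, were lower in each line, as were 36% of all bright probe sets. For Cnp, the other 2 probe sets had 1109.7, 1189 and 782 after 1 Gy against 3375, 4560.2 and 2961 in mock cells, and 792, 851 and 629 against 2475, 3532 and 2284.5. For Bst1 the other probe set had 716, 925 and 749.7 against 2849, 3832 and 3444. All 3 of these probe sets met the same limits.

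Sec63 was the member whose probe sets disagreed in direction. Its member probe set had 1981, 2022 and 1629.8 after 1 Gy and 4208, 4969.8 and 4548 in mock cells. Of the others, 1 had 772, 964 and 1038 after 1 Gy against 584, 714 and 774 in mock cells and another had 901, 976 and 1028 against 793, 636 and 656, both higher in 3 of 3 lines, while 2 more were lower in 3 of 3 (log2 ratios -0.71 and -0.87). The value of Sec63 thus depends on the probe set. The mixed probe sets were 1 each of Rabgap1l and Atxn7l1, with signals under 150 on all 6 arrays. A further 2 probe sets of Rabgap1l, counted among the 50, fell little in lines 1 and 2. The ratios in lines 1, 2 and 3 were 0.995, 0.983 and 0.514 for 1 and 0.924, 0.825 and 0.576 for the other. In 7 genes (Anp32a, Ap1ar, Cd47, Cpm, Desi1, Mindy2 and Pfn2) a probe set with a higher mean mock signal missed the limit, with a highest ratio in a pair of 0.518 to 0.590. For 14 genes the array has no other probe set, and for Snn, Acss1 and Nxpe3 the others were below 100 on all 6 arrays, mixed in direction for Snn and Acss1 and lower in 3 of 3 lines for Nxpe3. Probe sets of Ceacam1, Hadh and Cnp carry the suffix x, which marks probes that may bind related transcripts.

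**Figure D4:**
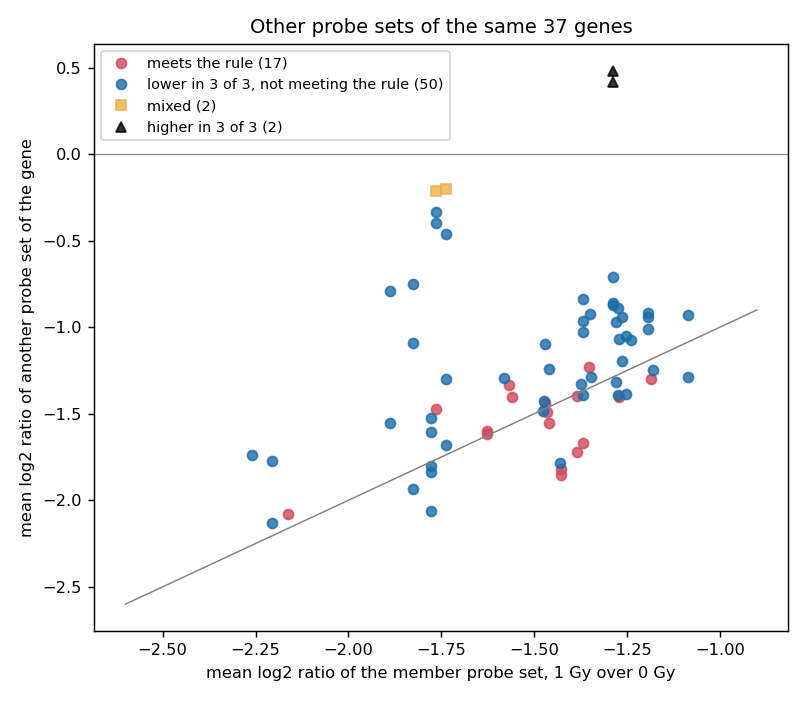
Mean log2 ratio, 1 Gy over 0 Gy, of the 71 other tested probe sets (y axis) against that of the member probe set of the same gene (x axis), with colours for the 17 that met the same limits, the 50 lower in 3 of 3 lines, the 2 mixed and the 2 higher in 3 of 3. The grey diagonal marks equal values. Most points lie near or above the diagonal and below 0, and the 2 points above 0 are both of Sec63.

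Genes of the same pathways that are not members were read from 11 lists, widened from the families of genes already known to fall in these data, so that their direction is not independent of earlier results. The lists hold 29 members and 505 other genes that were tested, each by its brightest probe set. Of the 505, limma called 41 lower and 9 higher at 1 Gy (adjusted p under 0.05), against 2.89% lower and 2.13% higher of all 9624 genes that are not members (2.55% and 1.93% of all 21762 probe sets tested). Leaving out any 1 array left 0 to 2 called lower and 0 or 1 called higher, so that these calls need all 6 arrays. With the line as a block 128 were lower and 45 higher (14.3% and 6.66% of all genes that are not members), and with all arrays scaled to a common median 18 were lower and 8 higher.

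Of 52 fatty acid, amino acid and acetate oxidation genes, 8 were lower and 1 was higher, against 22 and 1 with the line as a block (median log2 fold change -0.42, against -0.11 over all tested genes). The lower ones included Prkag2, a subunit of the AMP-activated kinase (log2 fold change -2.21, adjusted p = 0.00987), the mitochondrial aldehyde dehydrogenase Aldh1b1 (log2 fold change -2.14, adjusted p = 0.0223) and Cpt1a, which brings fatty acids into mitochondria (log2 fold change -1.45, adjusted p = 0.0285). Acot9, an acyl-CoA thioesterase, was higher (log2 fold change 1.06, adjusted p = 0.0205). Prkag2 had 82.3, 84 and 76.5 after 1 Gy, against 389, 438 and 308 in mock cells.

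Of 48 DNA replication and repair genes, limma called 6 lower and none higher (median -0.54), against 16 and 1 at an unadjusted p under 0.05 and 17 and 1 with the line as a block. They were the glycosylase Mbd4 (log2 fold change -1.66, adjusted p = 0.0414), Atad2 (log2 fold change -1.24, adjusted p = 0.0362), the replication timing factor Rif1 (log2 fold change -1.16, adjusted p = 0.0375), the RNase H subunits Rnaseh2a (log2 fold change -1.11, adjusted p = 0.0393) and Rnaseh2c, and Rpa3. Rpa3, the small subunit of the complex to which Rpa1 belongs, had 929.5, 1079 and 812 after 1 Gy, against 1979, 1579.9 and 2053 in mock cells (log2 fold change -0.99, adjusted p = 0.043). The middle subunit Rpa2 had 581, 556 and 399.8 against 1229.9, 579 and 545, and its groups overlapped (log2 fold change -0.53, adjusted p = 0.445). Rnaseh2c and the RPA subunits were picked after their values had been seen.

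Of 61 F-box, BTB, cullin and other ubiquitin genes, limma called 6 lower and none higher (median -0.16), against 19 and 3 at an unadjusted p under 0.05 and 15 and 1 with the line as a block. Otub2, a deubiquitinase, had 177, 211 and 285 after 1 Gy, against 854, 1098 and 1294 in mock cells (log2 fold change -2.28, adjusted p = 0.0185). The F-box genes Fbxo32 (log2 fold change -1.74, adjusted p = 0.0273) and Fbxl5 (log2 fold change -1.21, adjusted p = 0.0452) and Keap1, the adaptor that marks Nrf2 for degradation (log2 fold change -0.99, adjusted p = 0.034), were also lower. Of 59 lymphoid, ETS, TLE and HES regulators, 7 were lower, among them Elk3 (log2 fold change -1.60, adjusted p = 0.0443), Hes6 (log2 fold change -1.11, adjusted p = 0.0317), Rere (log2 fold change -1.08, adjusted p = 0.04) and Tle3 (log2 fold change -0.97, adjusted p = 0.0257), and Id2, an inhibitor of E proteins, was higher (log2 fold change 2.61, adjusted p = 0.0208). The median of the 59 was -0.16, and with the line as a block 14 were lower and 8 higher.

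Of 40 lysosomal genes, in a list that holds the members Gnptab and Scarb2, limma called Acp5, Manba and Smpd1 lower and none higher (median -0.37), against 15 and 1 at an unadjusted p under 0.05 and 14 and 1 with the line as a block. Acp5 had 207, 157 and 253 after 1 Gy, against 533, 685 and 729.9 in mock cells (log2 fold change -1.67, adjusted p = 0.0273). Of 37 glycosyltransferase and sulfotransferase genes, Papss1, which makes the sulfate donor (log2 fold change -1.58, adjusted p = 0.019), Galnt12 and Galnt10 were lower. With the line as a block 10 were lower and 8 higher. St3gal6 (log2 fold change 1.07, adjusted p = 0.0385) and Galnt2 (log2 fold change 0.98, adjusted p = 0.0368) were higher. Relatives of the member Galnt7 thus moved in both directions, and St3gal6, a relative of the member St6gal1, rose. Galnt2 had 3039, 3462 and 3385 after 1 Gy and 1566, 1984 and 1499 in mock cells.

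In the other 5 lists limma called few genes. Of 28 B cell surface genes that are not members, it called none in either direction, against 5 lower and 5 higher at an unadjusted p under 0.05 and 6 lower and 7 higher with the line as a block. Of 42 cyclin, CDK, inhibitor and E2F genes Sertad3 was lower (log2 fold change -1.55, adjusted p = 0.0479) and limma called none higher (4 with the line as a block, 5 before adjustment of the p-value at 0.05). Of 35 G protein and cyclic AMP genes Gng2 (log2 fold change -1.35, adjusted p = 0.0362) and Gna11 were lower and Cxcr5 was higher (7 and 3 with the line as a block). Of 45 lipid kinase and phosphatase genes Ppp3cc (log2 fold change -1.50, adjusted p = 0.0217), Pik3r1 and Ppip5k2 were lower and Ppp1r15a (log2 fold change 1.67, adjusted p = 0.0279) and Ptpn1 higher (9 and 3 with the block). Of 58 chromatin genes Ncoa7 and Hdac5 were lower and Chd4 (log2 fold change 1.16, adjusted p = 0.024) and Tet2 higher (7 and 8 with the block).

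**Figure D5:**
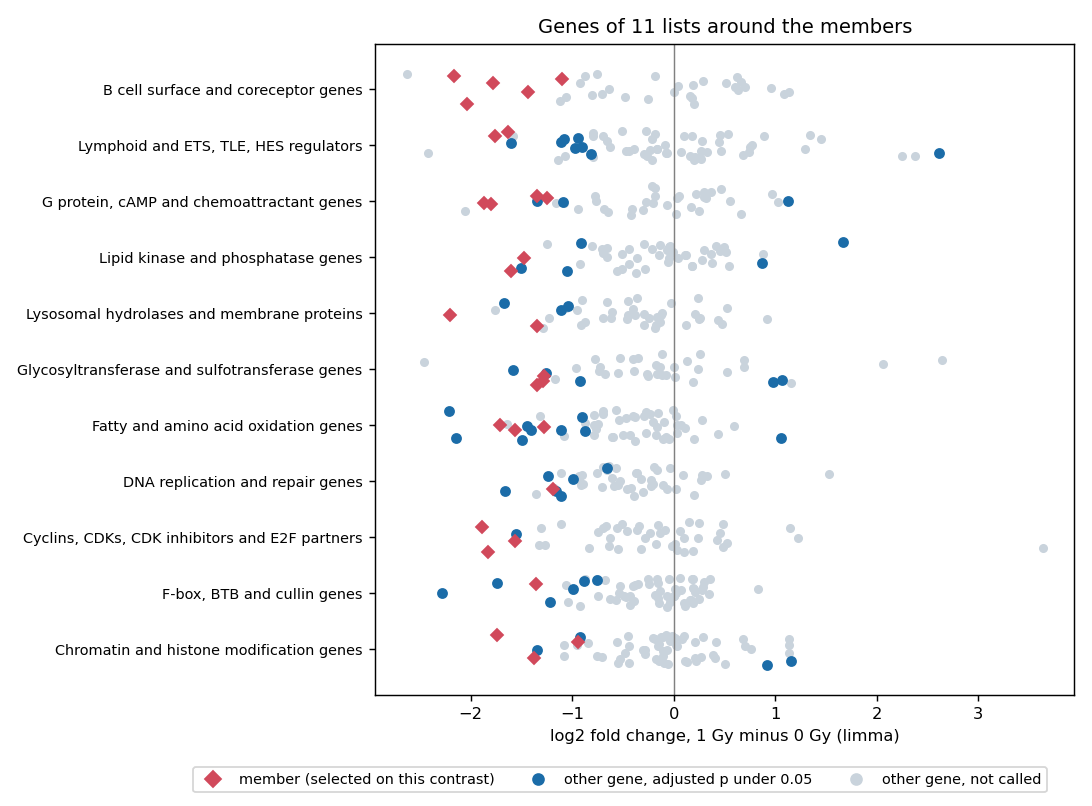
Log2 fold change of 1 Gy minus 0 Gy from limma (x axis) for the tested genes of 11 lists (rows), each by its brightest probe set, with members as red diamonds, other genes called at an adjusted p under 0.05 in blue and the rest in grey. Members stand at the left because they were selected on this contrast. Blue points lie on both sides of 0, with 41 lower and 9 higher.

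The genes next to the members on the chromosomes were read as well. In RefSeq order the 54 members have 108 neighbours, no member neighbours another, and 58 neighbours were tested. Limma called 6 of the 58 lower and none higher (median log2 fold change -0.32), against 2.89% lower and 2.13% higher among all genes that are not members. Before adjustment (p under 0.05) there were 22 lower and 5 higher, against 16.3% and 8.43% of all genes that are not members. With the line as a block there were 19 and 5, against 14.3% and 6.66%, and without any 1 array none was called. The 6 were Fbxl5 beside Bst1, Dnajc7 beside Cnp (log2 fold change -0.88, adjusted p = 0.0352), Exoc6 beside Hhex (log2 fold change -0.86, adjusted p = 0.0395), Cep97 beside Nxpe3 (log2 fold change -1.11, adjusted p = 0.0441), Ostm1 beside Sec63 (log2 fold change -0.96, adjusted p = 0.0368) and Txndc11 beside Snn (log2 fold change -1.15, adjusted p = 0.0433). Fbxl5 had 2016, 1939 and 1527 after 1 Gy, against 3208, 5014 and 4633 in mock cells. Dnajc7 had 6764, 6817 and 7322 against 11482, 14289 and 12801. In both genes the irradiated signals lay below all mock signals.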

How the data were processed

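Total RNA from 6 pre-B cell cultures was hybridised to Mouse 430 2.0 arrays. The authors deposited 1 linear intensity (signal) per probe set and array. MAS5 is named in the submitters' processing notes, and the values have a mean of 500 on each array without the lowest and highest 2%. The paper's own analysis used RMA and ANOVA. The genome build behind the array annotation is not given in the sources used here. Signals under 1 were set to 1 before log2. Gene names came from the platform annotation, which gives 1 name for 34945 of 45037 probe sets, several for 932 and none for 9160 (64 control probe sets were left out). Ratios were taken within a line, and SDs are over 3 lines. The members and the gene lists were chosen with earlier results of these data known.

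For genes that are not members, the 21762 probe sets that reached 100 on any array were tested with limma 3.58.1 (R 4.3.3), with dose as the factor and Benjamini-Hochberg adjustment over all of them, and an adjusted p under 0.05 was a call. Every adjusted p is from limma. A gene was read by its brightest probe set (9678 genes).

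Values on each array are given for the members with the lowest ratios, the brightest, up to 4 per list, those at the limit and those with the widest and narrowest spread, and up to 4 called genes are named per list. Members outside this rule and relatives were added after their values were seen. Same-numbered arrays were taken as the same line, since the sample titles give a replicate number and no line name. Their deviations from the group means correlated at 0.668 to 0.781 (different numbers, -0.495 to -0.053), so the line was also fitted as a replicate block. The number of arrays limits the precision. Protein lengths and gene spans were not analysed here. A further gene list is not reported here.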

Additional observations from a re-analysis of the deposited data

How the results depend on the processing

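The number of genes selected moved from 54 to 34 when a gene was read by the mean of its probe sets, to 125 with ratios of arithmetic means over the lines (median log2 ratio -1.17), to 125 with a minimum of 500 on the mock arrays and to 27 with a minimum of 2000. Leaving out a line, which also drops a condition of the selection, gave 80 to 111 genes. Quantile normalization gave 57 (53 of the 54) and a common median 40. The median log2 ratio was -1.52 to -1.33 under all settings but arithmetic means.

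Of the probe sets tested, 556 were lower and 419 higher. With the line as a replicate block these were 2499 and 1475, and without a filter 0 and 1 (5391 at an unadjusted p under 0.05). A common median gave 274 lower and 369 higher, so that its split turned, and a variance trend 690 higher. The methods' test gave 1729 and 1121 at its own thresholds (in words, a p of at most 0.05 and 1.5-fold) and 180 and 172 after Benjamini-Hochberg adjustment. Without any 1 array there were 0 to 47 lower and 0 to 73 higher (3748 to 4618 at an unadjusted p under 0.05). The members called between lines numbered 5, but 0 without a filter, 10 with a minimum of 100 on 3 or more arrays, 25 with a variance trend and 0 to 5 without a line. List genes called lower were 41, with the block 128, with a common median 18 and without any 1 array 0 to 2, and those higher were 9, 45 with the block and 0 to 1 without an array. The causes were not tested.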
